A study of Rattus norvegicus with 24 samples.

Results

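The dorsal striatum arrays of the series were compared by their own level of Ppp1r1b, the gene of the striatal phosphoprotein DARPP-32. All 24 arrays entered. Within each treatment group of 8 arrays, the 4 with the highest Ppp1r1b signal were called Ppp1r1b-high and the 4 with the lowest Ppp1r1b-low, which gave 12 arrays against 12 with every treatment equally represented on each side. Each array held RNA of the left dorsal striatum of male Long Evans rats aged 80 to 90 days. All rats had received 1 intraperitoneal injection on each of 5 days, and tissue was taken 24 h after the last. The saline group had 5 saline injections. The acute group had 4 of saline and then 1 of MDPV (methylenedioxypyrovalerone, a synthetic cathinone that blocks dopamine and noradrenaline uptake) at 1 mg/kg. The chronic group had 5 of MDPV at the same dose. The sides are defined by a measured value and are not treatments, so each test below asks which other genes went with Ppp1r1b across arrays. The design states 6 per group, while 8 arrays per group were present and 6 pairs of arrays share a letter (A to F) in their titles. With each such pair counted once and every other array singly, each treatment group holds 6 units, the number the design states. Whether a shared letter marks a shared animal is not given, and p-values over 24 arrays may rest on partly technical spread.

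DARPP-32 is made by the spiny projection neurons, the main neuron class of the striatum. Dopamine acting on D1 receptors raises cAMP and leads protein kinase A to phosphorylate DARPP-32, which then inhibits protein phosphatase 1, while D2 receptors and calcium oppose this. Neurons of the direct pathway carry the D1 receptor (Drd1) and those of the indirect pathway the D2 receptor (Drd2) and an adenosine receptor (Adora2a). In a dissected piece of tissue, fewer cells of a type and less RNA per cell cannot be told apart.

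The probe that sorted the arrays and those of the other 3 marker genes are shown because the comparison turns on them, with a probe of a gene that was higher and of a gene that was lower in the Ppp1r1b-high arrays. Drd1 is shown with 2 probes, which gave different sizes of change. Each line gives the first 30 of the probe's 60 bases, 5′ to 3′, as the array files list them, with G and C in capitals because the differences below varied with base composition.
Ppp1r1b, chr10:87131412-87131441, plus strand: tttCGtttGtGCtttGGtGCCaGGaatGCa
Adora2a, chr20:13815884-13815913, minus strand: GattCCaGaGCatGGGCtCaGGtCCCatGa
Drd2, chr8:52707670-52707699, plus strand: tGCaGtttGGaGGGttCtGGGatCCaaCtC
Drd1, brighter probe, chr17:16658893-16658922, plus strand: CGGaCtttGaatGttttCtCaGCtCtaaGG
Drd1, dimmer probe, chr17:16657572-16657601, plus strand: aaCaGCttCaCttaaaaatCGaaCtttCCa
Pcp4, chr11:36828274-36828303, plus strand: aGCattGCCttCtGaGCtGttCtGtGGGaC
Rasd1, chr10:46291516-46291545, minus strand: attaCCCaaaaGGaaaaCaaaaCaCaaaaC
Coordinates are those of the files' rat build rn4. Over all 60 bases, the Ppp1r1b probe held 27 G or C bases, the Adora2a probe 31, the Drd2 probe 27, the Drd1 probes 21 and 24, the Pcp4 probe 33 and the Rasd1 probe 21.

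Ppp1r1b was among the bright probes of every array. Its only probe was spotted 2 times per array, and all 48 spots were well above background. Levels are log2 signals minus the 75th percentile of the array's non-control spots, so a level of 5 is 5 log2 units above that percentile. In the saline group the high arrays were replicates 2 (5.34), 7 (5.17), 8 (4.71) and 6 (4.67), and the low arrays replicates 1 (4.48), 5 (4.30), 3 (4.29) and 4 (3.10). In the acute group the high arrays were replicates 1 (5.11), 5 (4.94), 3 (4.65) and 7 (4.57), and the low arrays replicates 2 (4.55), 4 (4.31), 6 (4.05) and 8 (3.83). In the chronic group the high arrays were replicates 2 (5.72), 3 (4.97), 7 (4.87) and 8 (4.80), and the low arrays replicates 6 (4.48), 4 (4.40), 1 (4.35) and 5 (4.24). Replicate numbers follow accession order and only name the arrays. The level ran from 3.10 in saline replicate 4 to 5.72 in chronic replicate 2, a 6.16-fold range of signal. The sides averaged 4.961 ± 0.334 and 4.199 ± 0.398 (SD, n = 12 each), a 1.70-fold difference that the choice of arrays fixes and that was not tested. The arrays nearest the division were 0.19 apart in the saline, 0.018 in the acute and 0.33 in the chronic group. In the authors' own value table, acute replicates 2 and 7 change sides and no other array does.

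**Figure D1:**
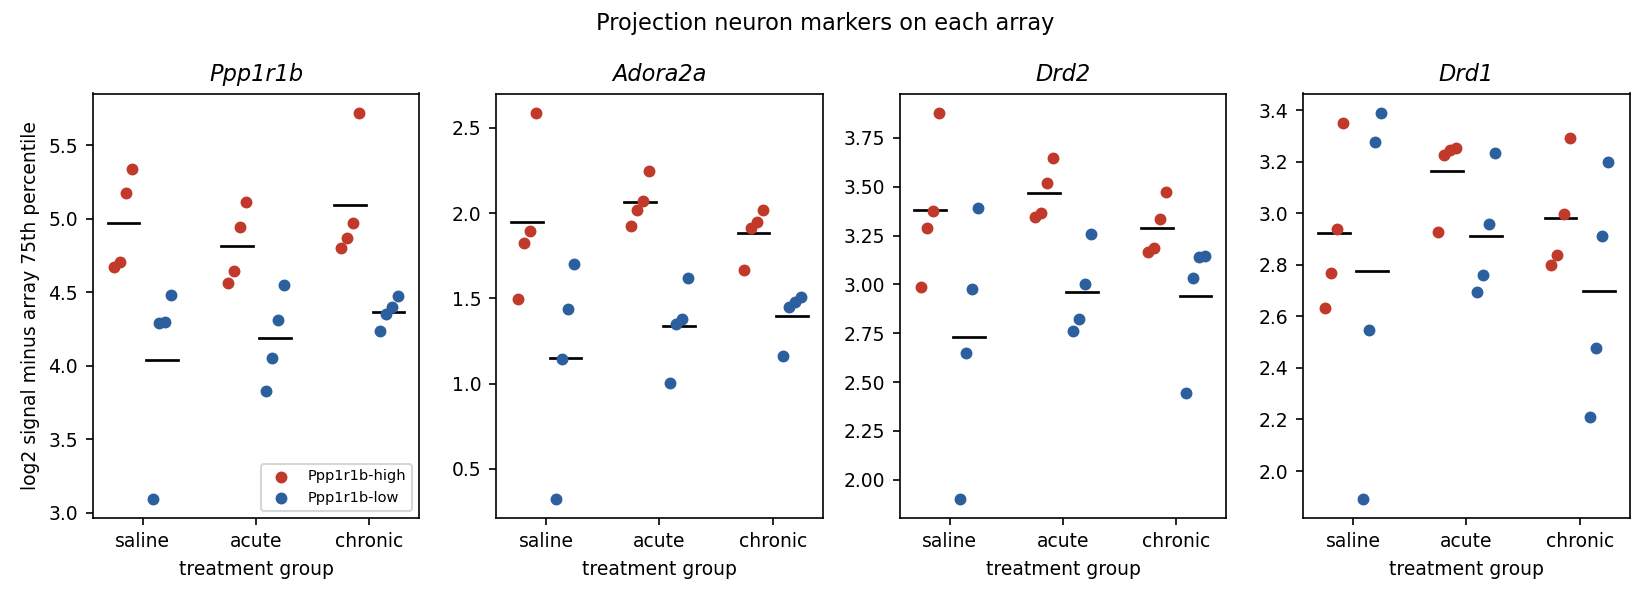
Level of Ppp1r1b, Adora2a, Drd2 and Drd1 on each of 24 arrays (log2 signal minus the array's 75th percentile, vertical axis) by treatment group, Ppp1r1b-high arrays in red and Ppp1r1b-low in blue, black bars the means of 4 arrays. The sides are apart in Ppp1r1b by construction, overlap in Adora2a and Drd2 only within the saline group, and overlap in Drd1 within all 3 groups.

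Neither slide nor the title letters lined up with the division in full. Slides 1, 2 and 3 held 4, 2 and 6 high arrays and 4, 6 and 2 low arrays, so slide was partly unbalanced. Of the 6 pairs of arrays that share a title letter, 5 lay on opposite sides. Within these 6 pairs Ppp1r1b differed by 0.23 to 1.48. The SD over all 24 arrays was 0.53, which describes single arrays and is not a like measure to a difference between 2. A sort of the same arrays by the choroid plexus gene Ttr placed 5 arrays high in both, 5 low in both and 14 on opposite sides (7 each way), and a sort by the cortical gene Slc17a7 gave 6 in each of the 4 combinations.

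Before the results, 2 array measures that moved with the division are given, because they bear on every gene below. Neither was among the array measures planned in advance, so their p-values are not those of tests fixed beforehand. The first was the mean difference between the 3′ and the 5′ probe of a gene, over 1617 genes with kept probes at least 500 bases apart. It was 2.04 ± 0.11 in the high and 2.16 ± 0.08 in the low arrays (SD, n = 12 each; exact permutation within treatment groups, two-sided, p = 0.0073, adjusted over 10 measures 0.042), so that 5′ probes were relatively brighter on the high arrays. The lowest value, 1.77, was that of chronic replicate 2, the array highest in Ppp1r1b. The second was the correlation of an array's deviations with the G and C count of the probes, 0.09 ± 0.15 in the high and -0.08 ± 0.18 in the low arrays (exact permutation, p = 0.028, adjusted 0.070), positive in 8 of 12 high and 4 of 12 low arrays. Over the 24 arrays, as deviations from treatment means, Ppp1r1b correlated with the 3′ to 5′ difference at r = -0.72 and with the GC measure at r = 0.62, and these 2 measures with each other at r = -0.90. These correlations are descriptions, since all 3 values come from the same scans. In exact permutation tests of the same kind, the 75th percentile (p = 0.84), the share of spots well above background (63.7% ± 5.0 and 62.0% ± 6.6, p = 0.48), the median signal (p = 0.56), the background (p = 1) and the number of spots left out (p = 0.46) did not pass. The first and second principal components, which held 24.3% and 11.3% of the variance, also differed between the sides (adjusted p = 0.042 each). The components were added too. The planned measures were those listed as not passing, so every measure that differed was an added one.

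**Figure D2:**
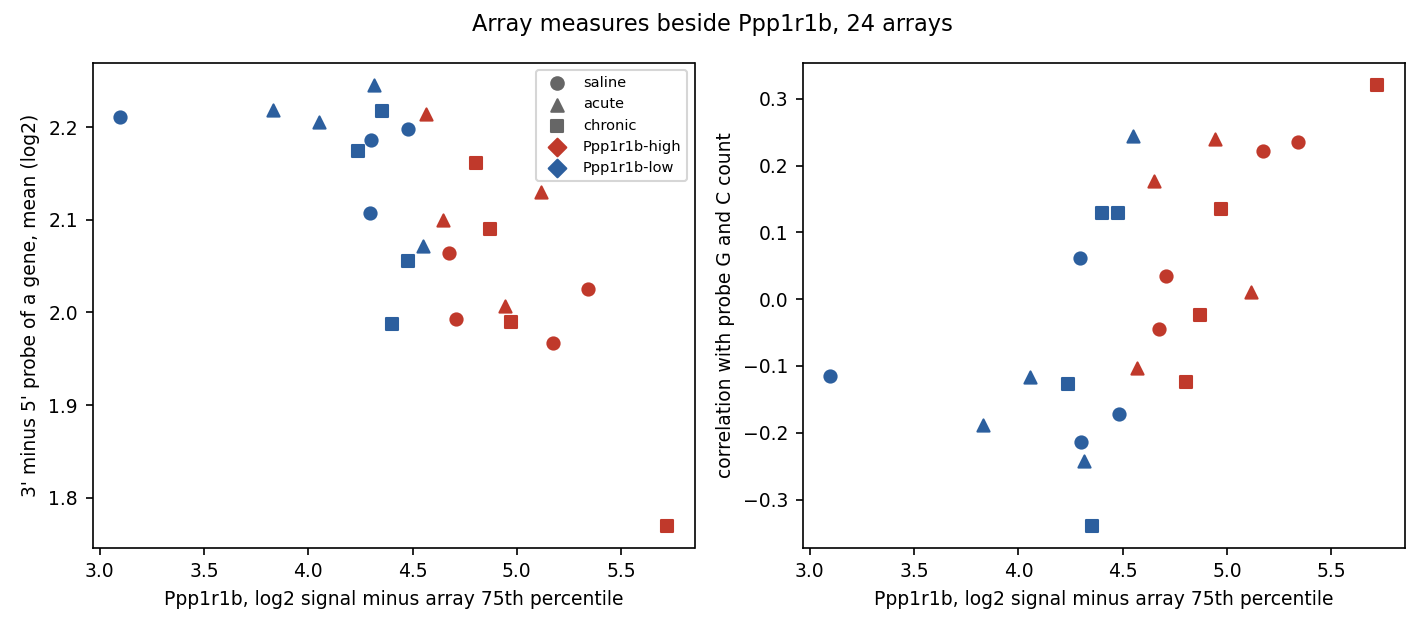
Each of the 24 arrays by Ppp1r1b level (horizontal axis) against the mean log2 difference between 3′ and 5′ probes of a gene (left) and the correlation of the array's deviations with probe G and C count (right), red for Ppp1r1b-high, blue for Ppp1r1b-low, symbols for treatment. High arrays lie lower on the left and higher on the right, with overlap in both, and chronic replicate 2 is lowest on the left (1.77) and highest on the right (0.32).

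Genes of the striatal projection neuron and of dopamine signalling were higher in the Ppp1r1b-high arrays, and genes of cilia, hypothalamus and thalamus were among the lower ones. Of 20892 genes other than Ppp1r1b, 2199 passed a limma test with treatment as a block and Benjamini-Hochberg adjustment at 0.05 (10.5%), 1404 of them higher (6.72%) and 795 lower (3.81%) in the high arrays. In the authors' values the same division gave 1053 higher and 910 lower, and with normexp background correction 699 and 612. The excess of higher genes was thus smaller under both kinds of processing, and the cause was not tested. Differences were small: the median absolute difference of a called gene was 0.35 log2 units, 43 called genes exceeded 1, and the median over all genes was 0.05 with a median standard error of 0.11. The sides overlapped for nearly every gene. Without overlap were 8 genes (0.0383% of those tested, against 10.5% called), of which Iffo1, Slc26a10, Coro7, Sgk494 and Kcnh4 have a name. The number called depended on single arrays, from 1029 without chronic replicate 2 to 3428 without chronic replicate 8, and 969 genes were called whichever array was left out.

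With the 3′ to 5′ difference of each array as a covariate, an alternative chosen after seeing the data, 12 genes were called, 11 higher and 1 lower, and 3142 had an unadjusted p under 0.05. All 2199 genes kept their sign, their median absolute difference went from 0.35 to 0.21, and the median over all genes from 0.05 to 0.00. The measure and the division share much of their variation, so their parts cannot be told apart for a single gene. With the letter as a random block 1479 genes were called, at an estimated correlation within letters of -0.31. Of the 6 letter pairs 5 lay on opposite sides of the division, which this fit holds as a term. The estimate therefore cannot show whether arrays sharing a letter were alike. With only the 5 letters that lay on both sides and the letter as a block, 1 gene was called. Counts and calls below are those of the comparison without these terms, and values with the 3′ to 5′ covariate are given beside the groups that matter.

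Adora2a and Drd2 were higher in the high arrays and Drd1 did not pass. Adora2a, the adenosine receptor of indirect pathway neurons, ran from 1.497 through a median of 1.94 to 2.59 in the high arrays and from 0.33 through 1.41 to 1.70 in the low arrays, a difference of 0.67 ± 0.13 (SE, n = 12 each; limma adjusted p = 0.0084). Drd2 ran from 2.99 through 3.35 to 3.88 against 1.90 through 2.99 to 3.39, a difference of 0.50 ± 0.13 (adjusted p = 0.025). Over all 24 arrays both overlapped between the sides, while within the acute and chronic groups neither did. For Drd1 the ranges were 2.63 through 2.97 to 3.35 and 1.89 through 2.84 to 3.39, a difference of 0.23 ± 0.15 (adjusted p = 0.30), or 0.14 without saline replicate 4. The dimmer Drd1 probe, on the 5′ side of the brighter one as both read along the plus strand, gave 0.59 ± 0.14 (adjusted p = 0.018 over 26258 probes). The direction was thus the same in both probes, and only the dimmer passed. With the 3′ to 5′ covariate the differences were 0.68 for Adora2a, 0.63 for Drd2 and 0.43 for Drd1 (adjusted p = 0.086, 0.094 and 0.20).

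The 25 genes shared by projection neurons moved as a group. All 25 were measured, all 25 had a higher mean in the high arrays, and 15 were called higher and 0 lower, against 6.72% and 3.81% of all genes. Their median difference was 0.46, against 0.05 for all genes, and it was 0.58, 0.40 and 0.36 within the saline, acute and chronic groups and 0.40, 0.46 and 0.43 within slides 1, 2 and 3. The mean level of the list ran from 1.53 through 1.81 to 2.21 in the high arrays and from 0.48 through 1.41 to 1.77 in the low arrays, with saline replicate 4 the lowest. Without saline replicate 4 the median was 0.37 and 14 were called. With the 3′ to 5′ covariate the median was 0.52, all 25 stayed positive and 24 had an unadjusted p under 0.05, while 0 passed after adjustment. The list was drawn up with earlier results of these arrays known, so its direction is not independent evidence.

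Members of that list included signalling proteins of the spiny neuron. Rgs9, which shortens dopamine receptor signals by speeding GTP hydrolysis, ran from 3.28 through 3.60 to 4.02 in the high and from 1.91 through 3.02 to 3.35 in the low arrays, a difference of 0.73 ± 0.13 (adjusted p = 0.0063). Rasgrp2, a Rap activator driven by calcium and diacylglycerol, was higher by 0.72 ± 0.13 (adjusted p = 0.0063). Gng7, a G protein gamma subunit that acts with Golf, was higher by 0.70 ± 0.15 (adjusted p = 0.012), while its second probe differed by 0.08. The phosphodiesterases Pde1b and Pde10a, which break down cyclic nucleotides, were higher by 0.69 ± 0.15 and 0.63 ± 0.14 (adjusted p = 0.013 each). Actn2, an actin cross-linker of the dendritic spine, was higher by 0.72 ± 0.15 (adjusted p = 0.0098).

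Of 25 listed genes of dopamine and cAMP signalling, the pathways in which DARPP-32 acts, 24 were measured. In the high arrays 11 were called higher and 0 lower, 45.8% in all against 10.5% of all genes. A higher mean was found for 21 of the 24, and the median difference was 0.33. Ppp1ca, the catalytic subunit of the phosphatase that DARPP-32 inhibits, ran from 3.67 through 3.82 to 4.28 in the high and from 2.90 through 3.44 to 3.76 in the low arrays, a difference of 0.44 ± 0.09 (adjusted p = 0.0098). Gnal, the Golf alpha subunit that couples D1 and adenosine receptors to adenylyl cyclase, was higher by 0.48 ± 0.12 (adjusted p = 0.017). Ppp1r9b (spinophilin), which places the phosphatase in spines, was higher by 0.36 ± 0.10 (adjusted p = 0.029). The second probe of Gnal differed by 0.15. With the 3′ to 5′ covariate the list's median was 0.29, 19 of 24 were positive, 16 had an unadjusted p under 0.05 and 0 were called, and Ppp1r9b differed by 0.14 (unadjusted p of limma 0.12).

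The 2 output pathways differed in the number of called genes, and that difference was not tested. Of 11 indirect pathway genes 10 had a higher mean in the high arrays, with a median of 0.27. Called higher were 5 and lower 0, 45.5% in all against 10.5% of all genes. Besides Adora2a and Drd2 these were Penk, the enkephalin precursor (0.55 ± 0.12, adjusted p = 0.012), the adenosine kinase gene Adk (0.23 ± 0.07, adjusted p = 0.037) and the kainate receptor gene Grik3 (0.25 ± 0.08, adjusted p = 0.043). Of 12 direct pathway genes 8 had a higher mean, with a median of 0.17. Called higher were 2 and lower 0, 16.7% in all against 10.5% of all genes. The called genes were Ebf1, a transcription factor of direct pathway development (0.51 ± 0.13, adjusted p = 0.024), and Chrm4, the M4 muscarinic receptor (0.34 ± 0.10, adjusted p = 0.041). Tac1, the substance P precursor, differed by 0.34 ± 0.13 (adjusted p = 0.095) and Slc35d3 by 0.32 ± 0.12 (adjusted p = 0.074), neither of which passed. With the 3′ to 5′ covariate the medians were 0.40 in the indirect and 0.25 in the direct list, and 0 genes were called in either. Adk and Grik3 then differed by 0.14 each (unadjusted p of limma 0.069 and 0.099), and each passed in 26 of 49 alternatives. Without saline replicate 4, 3 indirect and 1 direct pathway genes were called higher. The median G and C share of the probes was 40% in the indirect and 35.8% in the direct list. After each array was centred within classes of probe GC, an added alternative, the medians were 0.37 and 0.25, Tac1 and Slc35d3 passed (adjusted p = 0.036 and 0.029), and Chrm4 and Adk did not (0.082 and 0.070).

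Among 15 measured transcription factors of the striatum, 14 had a higher mean in the high arrays, with a median of 0.30. Called higher were 4 and lower 0, 26.7% in all against 10.5% of all genes. Foxp1, a regulator of spiny neuron identity, was higher by 0.53 ± 0.13 (adjusted p = 0.018) and Meis2, expressed from the embryonic striatum on, by 0.40 ± 0.11 (adjusted p = 0.028). Klf16, known as a regulator of dopamine receptor genes, was higher by 0.30 ± 0.09 (adjusted p = 0.033), and Ebf1 is given above. Klf16 lost its call after centring by probe GC (adjusted p = 0.26).

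**Figure D3:**
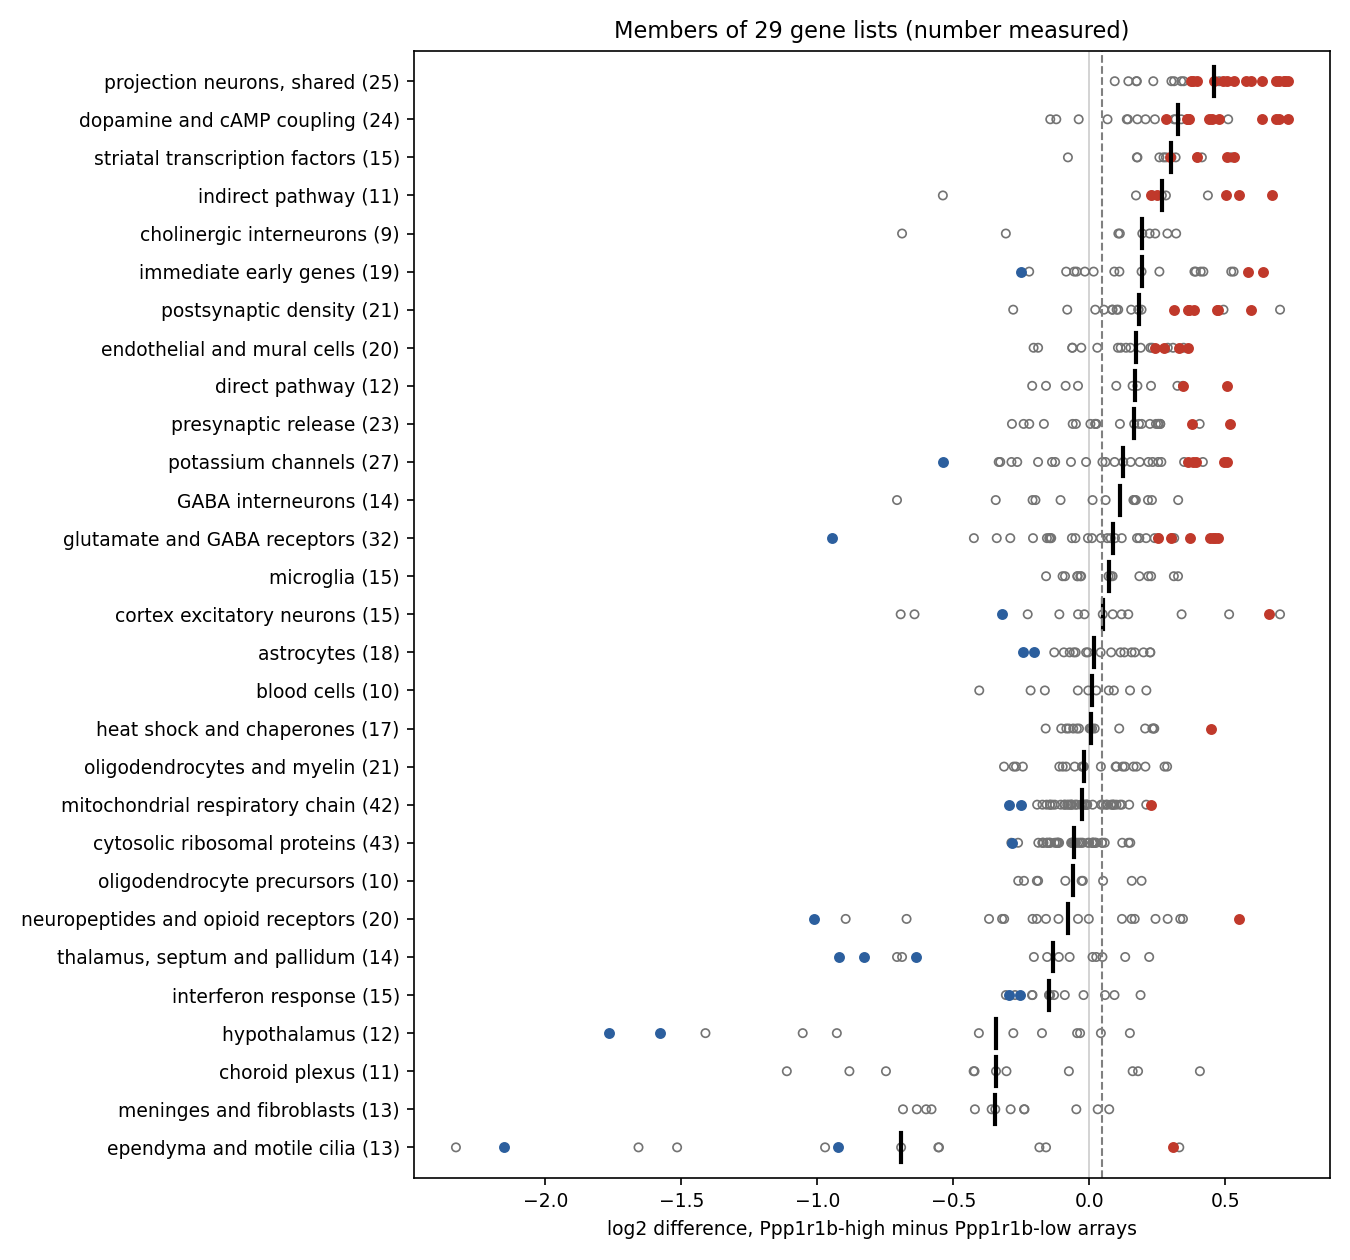
Difference of each measured member of 29 gene lists (horizontal axis, log2, Ppp1r1b-high minus Ppp1r1b-low, 12 arrays each), red where called higher, blue where called lower, open where not called. Black bars are list medians and the dashed line is the median of all 20892 genes (0.05). The projection neuron list stands at the top with a median of 0.46 and no member below 0, and the cilia list at the bottom with -0.69.

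Genes of the synapse and of excitability were mixed. Of 21 genes of the postsynaptic density 19 had a higher mean, with a median of 0.18. Called higher were 7 and lower 0, 33.3% in all against 10.5% of all genes. They included Camk2b (0.47 ± 0.11, adjusted p = 0.015), a subunit of the calcium and calmodulin dependent kinase, the scaffold gene Dlgap3 (0.59 ± 0.14, adjusted p = 0.017) and Shank3 (0.31 ± 0.09, adjusted p = 0.027). Of 23 presynaptic genes 2 were called higher (8.70%, near the 6.72% of all genes), Sv2c, a vesicle protein abundant in the basal ganglia (0.52 ± 0.10, adjusted p = 0.0088), and Syt5 (0.38 ± 0.09, adjusted p = 0.017). That list's median changed sign, from 0.16 to -0.11, with the 3′ to 5′ covariate.

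Of 27 potassium channel genes 5 were called higher and 1 lower, 22.2% in all against 10.5% of all genes. Kcnh4, an ether-a-go-go family channel, did not overlap between the sides, from -1.05 through -0.88 to -0.49 in the high and from -1.85 through -1.32 to -1.05 in the low arrays, a difference of 0.49 ± 0.08 (adjusted p = 0.0063). It was also among the 12 genes called with the 3′ to 5′ covariate (0.53, adjusted p = 0.047). Kcnt1, a sodium-activated channel, was higher by 0.36 ± 0.08 (adjusted p = 0.010).

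Of 32 glutamate and GABA receptor genes 7 were called higher and 1 lower, 25% in all against 10.5% of all genes, with a median of 0.09. Gabrd, the delta subunit of extrasynaptic GABA-A receptors, was higher by 0.37 ± 0.08 (adjusted p = 0.012), and Grm5 and Grm3, metabotropic glutamate receptors, by 0.46 ± 0.12 and 0.45 ± 0.11 (adjusted p = 0.020 each). Grik1, a kainate receptor subunit, was lower by 0.95 ± 0.18 (adjusted p = 0.0084) and was well above background on 10 of 12 high and 11 of 12 low arrays. Immediate early genes, which neurons induce within minutes of activity, had 2 called higher and 1 lower of 19, or 15.8% against 10.5%. Egr1 was higher by 0.64 ± 0.16 (adjusted p = 0.017), with 0.86, 0.05 and 1.01 in the saline, acute and chronic groups. Junb was higher by 0.58 ± 0.14 (adjusted p = 0.019) and Jun lower by 0.25 ± 0.07 (adjusted p = 0.025). After centring by probe GC, Gabrd, Syt5, Junb and Jun no longer passed (adjusted p = 0.061, 0.062, 0.052 and 0.14). With the 3′ to 5′ covariate, Camk2b (0.24), Dlgap3 (0.38), Syt5 (0.21) and Grm3 (0.24) differed by less than without it by over 1.5 times.

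Interneuron genes gave no calls. Of 9 cholinergic and 14 GABA interneuron genes, 0 passed in either direction, against 10.5% of all genes. In lists this short, 0 calls do not show that a difference was absent. The medians were 0.19 and 0.11, against 0.05 for all genes. With slide as a block, 1 cholinergic gene was called higher. Among 20 neuropeptide and opioid receptor genes, Penk was called higher and Crh, the corticotropin-releasing hormone, lower by 1.01 ± 0.24 (adjusted p = 0.016). These calls are 10% of the list, near the 10.5% of all genes, and the list's median was -0.08.

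Among the named genes, those that mark ventricle lining and hypothalamus included the largest decreases, and the called genes of thalamus had smaller ones. Ciliated ependymal cells line the ventricle, and 11 of 13 of their measured genes had a lower mean in the high arrays, with a median of -0.69. Called lower were 2 and higher 1, 23.1% in all against 10.5% of all genes. The mean level of the list ran from -5.18 through -4.45 to -3.00 in the high and from -4.42 through -3.53 to -2.28 in the low arrays. Drc12, a component of the dynein regulatory complex of motile cilia, ran from -6.77 through -5.78 to -4.68 in the high and from -5.11 through -3.95 to -1.70 in the low arrays, a difference of -2.15 ± 0.31 (adjusted p = 0.0030). It was well above background on 9 of 12 high and 12 of 12 low arrays, and it was the gene called lower with the 3′ to 5′ covariate (-2.02, adjusted p = 0.047). Rsph1, a radial spoke protein, was lower by 0.92 ± 0.24 (adjusted p = 0.021), with -1.39, -1.27 and -0.11 in the saline, acute and chronic groups. Cfap43, of the axoneme, was higher by 0.31 ± 0.08 (adjusted p = 0.021), and Tmem212 differed by -2.33 ± 0.82 without passing (adjusted p = 0.067).

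Of 12 measured hypothalamic genes 10 had a lower mean in the high arrays, with a median of -0.34. Called lower were 2 and higher 0, 16.7% in all against 10.5% of all genes. The mean level of the list ran from -4.30 through -3.89 to -3.26 in the high and from -4.15 through -3.45 to -0.69 in the low arrays. The neuropeptide gene Gal was lower by 1.58 ± 0.39 (adjusted p = 0.019). Hdc, which makes histamine, was also called (adjusted p = 0.049), but it was well above background on only 3 of 12 high and 7 of 12 low arrays, so the size of its difference is not well measured. It passed in 14 of 48 alternatives. Avp, Oxt and Pmch did not pass (adjusted p = 0.35, 0.76 and 0.17), and their highest values, 2.60, 1.99 and 0.86, were all those of saline replicate 4, whose list level of -0.69 was the highest of the 24. Without saline replicate 4 the hypothalamic median was -0.23.

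Of 14 measured genes of thalamus, septum and pallidum 3 were called lower and 0 higher, 21.4% in all against 10.5% of all genes. They were Slc17a6, the vesicular glutamate transporter of subcortical neurons (-0.92 ± 0.29, adjusted p = 0.043), Zic1 (-0.83 ± 0.25, adjusted p = 0.039) and Tcf7l2 (-0.64 ± 0.19, adjusted p = 0.040). Without saline replicate 4, and also after centring by probe GC, 0 were called.

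The choroid plexus, which makes cerebrospinal fluid, did not follow the division. Of its 11 measured genes 0 passed, against 10.5% of all genes. The list's median difference was -1.59 in the saline, -0.35 in the acute and 0.97 in the chronic group. Ttr, its transthyretin gene, ran from -5.62 to 6.22 in the high and from -5.05 to 6.28 in the low arrays and differed by -3.60, -2.51 and 3.87 in the 3 groups. Cortical excitatory neurons had 15 measured genes, 1 called higher and 1 lower, 13.3% in all against 10.5% of all genes. Their medians were 1.05, -0.31 and -0.63 in the saline, acute and chronic groups. Slc17a7, the cortical glutamate transporter, differed by -0.04 ± 0.61 (adjusted p = 0.97). Nrgn, a calmodulin binder of cortex and striatum, was called higher (0.66 ± 0.20, adjusted p = 0.039) and Rorb lower (-0.32 ± 0.10, adjusted p = 0.048), with 0.22 and -0.19 under the 3′ to 5′ covariate and -0.04 at the second Rorb probe. With the levels of Ttr and Slc17a7 as covariates 3661 genes were called, among them all 2199. Neither level followed the division, so this fit could not take out what did. Genes of ventricle lining, hypothalamus and thalamus were not used as covariates. The part of neighbouring tissue in the differences of other genes was not tested.

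Glial lists held few called genes. Oligodendrocyte (21 measured), precursor (10), microglial (15) and blood cell (10) lists had 0 calls, against 10.5% of all genes. Their medians ran from -0.06 to 0.07. The 13 genes of meninges and fibroblasts also had 0 calls, but a median of -0.35, against 0.05 for all genes. In lists this short, 0 calls do not show that a difference was absent. Of 18 astrocyte genes 2 were called lower and 0 higher, 11.1% in all, near the 10.5% of all genes. They were Gja1, the gap junction gene (-0.24 ± 0.07, adjusted p = 0.035), and the glutamate transporter gene Slc1a3 (-0.20 ± 0.06, adjusted p = 0.043), whose second probe differed by 0.14. The probes of both calls held 35% G and C, and neither call held after centring by probe GC (adjusted p = 0.17 and 0.24). With the 3′ to 5′ covariate the differences were -0.11 and -0.08. Of 20 endothelial and mural genes 4 were called higher (against 6.72% of all genes) and 0 lower, with a median of 0.17, among them the pericyte receptor gene Pdgfrb (0.28 ± 0.06, adjusted p = 0.012) and the VEGF receptor gene Flt1 (0.36 ± 0.09, adjusted p = 0.021). Housekeeping lists had small medians, with -0.06 for 43 ribosomal proteins (1 called lower), -0.03 for 42 respiratory chain genes (1 higher, 2 lower) and 0.00 for 17 chaperones (1 higher). The calls were 2.33%, 7.14% and 5.88% of these lists, against 10.5% of all genes. A higher mean in the high arrays was found for 13, 15 and 10 of their genes, against 57.9% of all genes, whose median was 0.05. Of 15 interferon response genes 2 were called lower and 0 higher, 13.3% in all against 10.5% of all genes, with a list median of -0.15. That median changed sign between treatments, with -0.46 in the saline, -0.21 in the acute and 0.33 in the chronic group. Psmb8, a subunit of the immunoproteasome, was one of the called genes (-0.25 ± 0.08, adjusted p = 0.048), and its second probe differed by -0.0017.

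Outside these lists, the genes of smallest p among the higher ones included matrix, cytoskeletal and signalling genes. Col11a2, a fibrillar collagen chain, ran from 1.44 through 1.81 to 2.32 in the high and from 1.10 through 1.27 to 1.56 in the low arrays, a difference of 0.49 ± 0.07 (adjusted p = 0.0030), and it was called with the 3′ to 5′ covariate as well. Pcp4, a calmodulin regulator abundant in the striatum, ran from 2.94 through 3.21 to 3.62 against 1.97 through 2.58 to 2.95, a difference of 0.67 ± 0.10 (adjusted p = 0.0030). Clcf1, a cytokine of the CNTF family, was higher by 1.16 ± 0.18 (adjusted p = 0.0049). Each of these was higher in the high arrays of all 3 treatments. Coro7, a coronin of the Golgi, did not overlap between the sides, with 1.64 as the lowest high and 1.59 as the highest low value.

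Among the lower genes, Rasd1, a Ras-like protein inducible by dexamethasone, ran from -4.48 through -3.57 to -2.95 in the high and from -3.27 through -2.85 to -1.64 in the low arrays, a difference of -0.92 ± 0.16 (adjusted p = 0.0063). Selenoh, a selenoprotein, was lower by 0.35 ± 0.06 (adjusted p = 0.0063) and Tgif1, a homeobox repressor, by 0.63 ± 0.11 (adjusted p = 0.0063). Atp6v1a, a subunit of the vacuolar proton pump, was lower by 0.36 ± 0.07 (adjusted p = 0.0073), while its second probe differed by 0.05 in the other direction. Coro1c, an actin-binding coronin, was lower by 0.44 ± 0.08 (adjusted p = 0.0065), so the coronin genes Coro7 and Coro1c went in opposite directions.

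**Figure D4:**
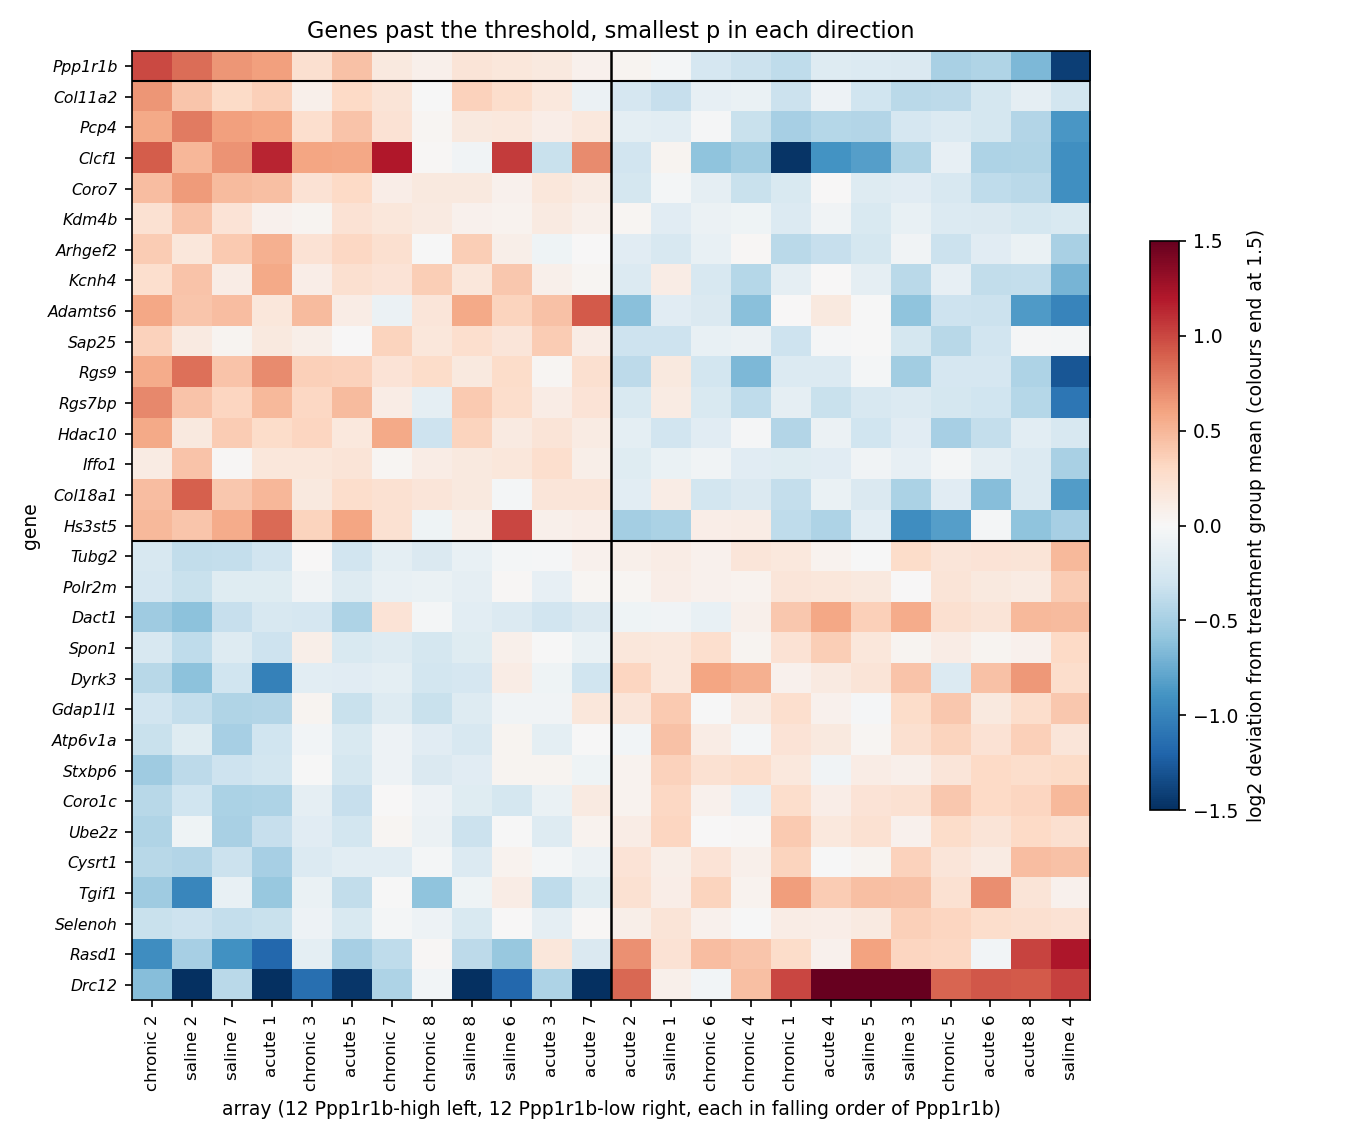
Deviation from the treatment group mean (colour, log2, ending at 1.5) of Ppp1r1b and of the 15 named genes of smallest p in each direction, over the 24 arrays, high arrays left of the line and low arrays right of it, each in falling order of Ppp1r1b. Saline replicate 4, at the right edge, is lowest in Ppp1r1b, Rgs9, Rgs7bp and Coro7, and Drc12, in the bottom line, is high in most low arrays.

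The genes whose deviations from treatment means were most like those of Ppp1r1b over the 24 arrays were Coro7 (r = 0.961), Hpca (0.959), Chst15 (0.957), Ngef (0.953), Pde1b (0.946), Anpep (0.945), Actn1 (0.940), Rgs7bp (0.939), Ppp1ca (0.937) and Rasgrp2 (0.935). Hpca is the calcium sensor hippocalcin and Ngef an exchange factor downstream of ephrin receptors. The most opposite were Polr2m (r = -0.93), Insyn2a (-0.92), Elp2 (-0.92), Klhdc10 (-0.91) and Tubg2 (-0.91). Second probes of Chst15, Anpep and Klhdc10 differed between the sides by 0.10, 0.27 and 0.22, against 0.58, 0.76 and -0.28 at the probes used. The r values are descriptions over 24 arrays, and the arrays share the technical measures given above. Adora2a had r = 0.885, Drd2 0.75 and Drd1 0.487.

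The differences varied with the base composition of the probe. In 4390 genes whose probe held 19 to 21 G and C bases of 60, the median difference was -0.07, 2.78% were called higher and 8.20% lower. In 3200 genes with 31 to 33 such bases the median was 0.14, 10.6% were called higher and 0.562% lower. The order was the same within each treatment group, from -0.10 to 0.20 in the saline, -0.06 to 0.10 in the acute and -0.04 to 0.12 in the chronic group for these classes. The called higher genes had a median probe GC of 45% and the called lower genes of 36.7%, against 43.3% for all. Probes of the same gene showed it as well. In 306 genes with kept probes at least 11 G and C bases apart, the GC-rich probe had a median difference of 0.15 and the GC-poor probe of -0.07, and the GC-rich probe was the higher of the pair in 261 (85.3%). Rasd1, whose brighter probe of 35% GC is shown above, had -0.92 there and -0.50 ± 0.25 at a probe of 45%, which did not pass (adjusted p = 0.18). After centring each array within GC classes, 1162 genes were called higher and 513 lower, 1291 of them among the 2199 (58.7%), and the projection neuron list kept a median of 0.43 with 12 called.

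**Figure D5:**
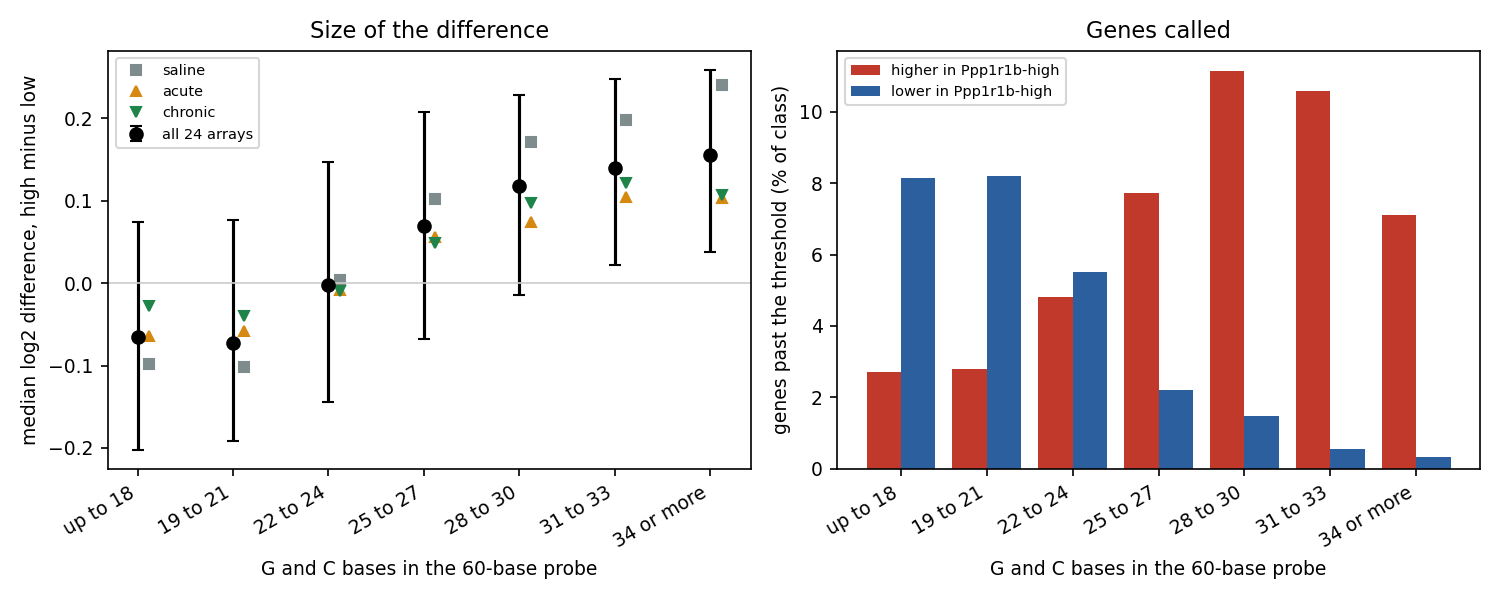
Left, median log2 difference (high minus low) of the tested genes by G and C bases in their 60-base probe, with quartiles as bars for all 24 arrays and symbols for each treatment group. Right, percent of genes of each class called higher (red) or lower (blue). The median rises from about -0.07 in the lowest classes to 0.16 in the highest, and called lower genes fall from 8.20% to 0.338%.

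The division bore little on the comparison of treatments, which it balances by construction. A limma F test of whether the difference between the sides depended on treatment called 0 of 20892 genes (0%), with 548 at an unadjusted p under 0.05 (2.62%) and a smallest adjusted p of 0.97. An F test over the 3 treatments called 0 genes without the division in the fit (304 at an unadjusted p under 0.05) and 0 with it (481). Within the treatments, 2182 of the 2199 called genes had the same sign in all 3, which the pooled test favours, against 55.2% of all genes.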

How the data were processed

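RNA of 24 striatum samples, 8 per group, was labelled with Cy3 and hybridised to Agilent one-colour arrays on 3 slides, all scanned on 1 day. Per the file headers, the processed signal is an intensity that Feature Extraction (version 10.7 per the submitters' processing notes) had corrected for background within the array. Per the file headers, further columns used are mean and background intensities and flags of 0 or 1, here called other values, for spots well above background, saturated (0 spots) or uneven. In the authors' deposited table the log2 values follow the order of each array's processed signals exactly (Spearman correlation 1), and every array has the same minimum (2.68) and maximum (18.1). The method behind them is not given in the sources used here. Between 50.7% and 71.3% of spots were well above background, and the number of arrays limits the precision.

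The log2 of each processed signal was taken and the 75th percentile over spots that are not controls was subtracted per array. A probe entered if it was well above background on a share of at least 0.5 of the arrays in 1 group or more, which left 26259 of 45598. A gene is its kept probe of highest mean (20893 genes, 13186 with a current symbol through RefSeq names). Uneven and outlying spots were left out. The 12 high and 12 low arrays were compared with limma 3.58.1 (lmFit, eBayes) in R 4.3.3, with treatment as a block and adjustment over 20892 genes, Ppp1r1b excluded. Array measures were compared by exact permutation within treatment groups (343000 arrangements). Python 3.11.15, numpy 2.4.6, pandas 2.3.3 and matplotlib 3.10.9 were used.

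The arrays, the marker genes and the 29 lists were chosen with earlier results of these data known. Named genes are Drd1, Drd2 and Adora2a, the 15 of smallest p in each direction, list members past the threshold (at most 6 per list, else the 4 largest differences), the 10 most and 5 least correlated with Ppp1r1b, the 5 of smallest interaction p, and Ttr, Slc17a7, Avp, Oxt and Pmch, of which the text gives a part. Slc26a10 and Sgk494 were named after their values were seen. The alternatives concerned normalization, background correction, filters, probes, slide, title letter, moderation, weights, Ppp1r1b as a continuous term and each array left out. Those chosen after seeing the data concerned probe GC, the 3′ to 5′ measure, the levels of Ttr and Slc17a7, split letter pairs and arrays left out together. Among the array measures, the 3′ to 5′ difference, the GC correlation and the principal components were added to the planned ones.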

Additional observations from a re-analysis of the deposited data

Results flagged for a closer look

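Within each treatment group of 8 arrays, the highest or lowest array was marked where its gap to the nearest other, as a share of the group's range, exceeded Dixon's 95% critical value. Of 387 sets of values tested 20 were marked, and chance marks about 1 in 20. Saline replicate 4 stood apart low in Ppp1r1b (3.10), Rgs7bp (-1.62), Baiap2 (1.16) and the mean level of immediate early genes (-2.75), and high in Avp (2.60), Oxt (1.99), Pmch (0.86) and the mean level of hypothalamic genes (-0.69). Acute replicate 8 stood apart in Avp (-0.62), Pmch (-4.13) and Camk2a (-2.25). Chronic replicate 8 stood apart low in Slc17a7 (-8.50), Grik1 (-6.11) and the mean level of cortical genes (-3.47). Chronic replicate 4 stood apart in Drd2 (2.44) and the mean level of indirect pathway genes (-1.17). Saline replicate 2 stood apart in Tgif1 (-4.84) and Rorb (-1.48), chronic replicate 1 in Flt1 (-5.47) and chronic replicate 5 in the mean level of respiratory chain genes (3.02).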

How the results depend on the processing

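The called genes nearly all kept their direction, and their number varied. They were chosen for a difference on these same arrays, which favours a kept sign, so this is not independent evidence. Of the 2199 called genes, 2198 kept their sign in the authors' values, 2196 there with the division made again, 2198 with outlier spots kept and 2190 over 18 units with Ppp1r1b as a continuous term. All that were measured kept it in each other alternative run, each array left out included. The number called (higher, lower) was 4002 (2185, 1817) after quantile normalization and 3951 (2164, 1787) in the authors' values, both with the division made again, 1311 (699, 612) with normexp, and 561 (375, 186) with no filter on dim probes. It was 6693 (4166, 2527) with Ppp1r1b as a continuous term, 6351 (4025, 2326) with array weights, 4007 (2486, 1521) with robust regression and 1479 (967, 512) with the letter as a random block. Of the alternatives chosen after seeing the data, the split letter pairs alone gave 1 (0, 1), leaving out the 2 acute arrays at the division 3896 (2515, 1381), and Ttr and Slc17a7 as covariates 3661 (2127, 1534). The 3′ to 5′ measure gave 12 (11, 1), that measure with the GC correlation 25 (21, 4), centring within GC classes 1675 (1162, 513), also with the division made again, and leaving out saline 4, saline 5 and chronic 8 1479 (969, 510). The causes were not tested.

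With 1 array left out, 1029 to 3428 genes were called, 682 to 2124 higher and 347 to 1304 lower. The number fell by more than 1.5 times without chronic 2 (1029), saline 2 (1146), acute 8 (1175), acute 5 (1237), acute 1 (1258), chronic 5 (1303), saline 7 (1311), chronic 1 (1330), acute 6 (1351) or saline 4 (1372), and rose by more without chronic 8. Of 99 genes checked, 96 never changed sign. The others were not called. Oxt was above 0 with array weights (0.023), robust regression (0.14), split letter pairs (0.18), the 3 arrays left out (0.22) and without saline 4 (0.18), and ran from -0.28 to 0.18 with 1 array left out. Slc17a7 was above 0 after quantile normalization (0.0039) and in the authors' values (0.00089) with the division made again, with the letter block (0.040), over 18 units (1.02), as a continuous relation (0.55), with array weights (0.19), robust regression (0.090) and the 2 acute arrays left out (0.015), and ran from -0.34 to 0.42 with 1 array left out. Ttr was 1.02 with the 3′ to 5′ measure and 1.17 with GC as well. Replicate numbers follow accession order and pair no arrays, so no fit used them as a block. The title letters A to F, which join 12 arrays in 6 pairs, were used instead, as given above. Each array titled with the letter H was its own unit. Dim genes are limited by background, and 1769 called genes were well above it on all 24 arrays.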
